A study of Mus musculus with 11 samples.

Results

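The 4 libraries described here carried hairpins against both Map3k7 and Chd1 (shDouble) and were set against the 3 libraries with control hairpins only (shControl). They were chosen by their hairpin labels and make up 4 of the 11 libraries of the series. All libraries came from WFU3, mouse stem cells of prostate epithelium kept as a cell line on uncoated dishes, and messenger RNA selected with oligo(dT) was sequenced from cells taken 24 hours after plating. The stated purpose was to find genes that differ between the knockdown groups.

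The shDouble libraries crossed 2 Map3k7 knockdown clones with 2 Chd1 hairpin constructs. Replicate 1 was clone 1 with construct 96526 and replicate 2 clone 1 with construct 96528, both at passage 49. Replicate 3 was clone 7 with construct 96526 and replicate 4 clone 7 with construct 96528, both at passage 48. The Map3k7 hairpin was carried by a lentiviral vector that also expresses EGFP, and the Chd1 hairpins by a puromycin-selected lentiviral vector. The shMap3k7 libraries, used as a second comparison, were the same clones 1 (passage 49) and 7 (passage 47) with a control hairpin in place of a Chd1 hairpin. Among shControl libraries, replicates 2 and 3 were control clones 4 and 5 at passage 52, with a control hairpin in each vector. Replicate 1 was an unnumbered control line at passage 30, with control hairpins labelled puro and neo. The shChd1 libraries of the series were control clone 4 with construct 96526 (passage 52) or 96528 (passage 50), and were not compared here. They were in the fits, where they add to the estimate of spread and share control clone 4 with shControl replicate 2. The 4 shDouble libraries thus rest on 2 clones, and differences between clones or passages cannot be told apart from those between groups. The labels do not say that libraries came from separate cultures, so p-values measure only the spread between these samples.

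Map3k7 encodes TAK1, a kinase that receives signals from receptors for tumour necrosis factor, interleukin-1, Toll-like ligands and TGF-beta. With its TAB partners it activates the IKK complex, which frees NF-kB to enter the nucleus, and the kinases upstream of JNK and p38. NF-kB in turn drives genes for cytokines, chemokines and acute-phase proteins. Chd1 encodes an ATP-dependent chromatin remodeller that binds histone H3 methylated at lysine 4 and spaces nucleosomes over transcribed genes. Both genes are recurrently deleted in human prostate cancer.

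Depth was 23163709, 22329280, 19937320 and 17277242 expected counts in shDouble replicates 1 to 4, against 15298380, 18859722 and 18238437 in shControl replicates 1 to 3. Correlations across genes between shDouble libraries were 0.99 or more within a clone and no more than 0.977 between clones, while shControl libraries correlated with each other at 0.963 to 0.966. In shControl replicate 1, 7 of 8 endothelial markers stood above their level in every shDouble library (the exception was Vwf). The same number did not pass the filter on low counts. Cdh5, the endothelial cadherin, measured 0 CPM (counts scaled to a common library size with normalization factors) in each shDouble library, against 18.2, 0 and 0.11 CPM in shControl replicates 1, 2 and 3. Pecam1 measured at most 0.297 CPM in shDouble, against 17, 0.208 and 0.22 CPM in shControl, and the summed level of the 8 markers was 0.951 to 1.68 CPM in shDouble, against 58.2, 1.5 and 1.76 CPM. The part of this library in the results was not tested beyond leaving it out, and counts without it are given below. The epithelial genes Krt8 and Cdh1 were expressed in all 7 libraries, with Krt8 at 3670 to 3941 CPM in shDouble and 1324 to 3066 CPM in shControl, and Cdh1 at no less than 248 CPM in any of them. Levels in bulk RNA do not show that a library held epithelial cells alone.

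Map3k7 mRNA was lower in all 4 shDouble libraries and Chd1 mRNA did not pass the test. Map3k7 (chromosome 4, 31964097 to 32023467 on GRCm38) measured 41.7, 40.9, 42.2 and 39.3 CPM in shDouble, against 124, 137 and 140 CPM in shControl, and the groups did not overlap. Its log2 fold change was -1.71 ± 0.07 (SE; edgeR quasi-likelihood test, adjusted p = 2.2e-06). Chd1 (chromosome 17, 15704967 to 15772610) measured 198, 162, 194 and 190 CPM in shDouble, against 212, 195 and 204 CPM in shControl. Only replicate 2, clone 1 with construct 96528, lay far below the controls, and replicate 1 lay inside their range. The log2 difference was -0.13 ± 0.09 (adjusted p = 0.291), and over the alternatives run it stayed between -0.19 and -0.08. Protein was not measured.

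Set against shControl, the shDouble libraries held far less of many matrix, mesenchymal and inflammatory transcripts and more of a smaller set of epithelial, sterol and signalling transcripts. Of 14346 genes tested, 3413 were called at an adjusted p under 0.05 (23.8%), 1467 higher (10.2%) and 1946 lower (13.6%), and 5343 had an unadjusted p under 0.05 (37.2%). The large changes were mostly falls: 260 genes rose at least 2-fold (1.81%) and 1047 fell at least 2-fold (7.3%). The libraries of the groups did not overlap for 1418 of the 1467 called rises and 1777 of the 1946 called falls. As shares of all genes tested these are 9.88% and 12.4%, and 4669 genes in all (32.5%), called or not, did not overlap. The test treats the libraries of a clone as separate: when the line entered as a random replicate block 1557 genes were called, of which 1541 were among the 3413, and with counts summed per line 554, of which 553 were. Without shDouble clone 7 the count was 1802, and without shControl replicate 2 it was 2177. With only the shDouble and shControl libraries in the fit it was 2511.

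The largest rises were of receptors, signalling proteins and developmental transcription factors. Arfgef3 measured 32.5, 33.4, 28.9 and 31.8 CPM in shDouble, against 1.19, 1.04 and 1.21 CPM in shControl (log2 4.78 ± 0.13, adjusted p = 4.4e-08). Its shDouble values were alike in both clones and lay far above every control. Dgkk, a diacylglycerol kinase, measured 120, 115, 22.1 and 28.4 CPM in shDouble, against 0.562, 1.09 and 5.77 CPM in shControl (log2 4.83 ± 0.96, adjusted p = 0.00598). Clone 1 stood well above clone 7 there, and likewise for Slain1, a microtubule-binding protein, at 11.3 and 10.3 CPM in clone 1 and 3.64 and 3.03 CPM in clone 7, against 0.0519 to 0.44 CPM in shControl. Chrm3, a muscarinic acetylcholine receptor, measured 17.6, 16, 6.72 and 6.95 CPM in shDouble, against 0.208 to 0.999 CPM in shControl. Bdkrb2, the bradykinin B2 receptor, measured 23, 18.5, 31.1 and 21.3 CPM in shDouble, against 0.687, 0.363 and 3.46 CPM in shControl (log2 3.95 ± 0.57, adjusted p = 0.00129). Cntfr, which binds ciliary neurotrophic factor, and Enho, which encodes a secreted peptide, lie close together on chromosome 4 and rose by 3.53 ± 0.73 and 3.20 ± 0.36 on the log2 scale. The transcription factor genes Shox2, Myb, Pax8 and Foxl2 rose by 3.69, 3.40, 3.39 and 3.12 on the log2 scale. Pax8 had 25.7, 28, 13 and 11.1 CPM in shDouble, against 2.25, 1.35 and 1.98 CPM in shControl. Myb was uneven within clone 7, at 2.08 CPM in replicate 3 and 7.67 CPM in replicate 4. Foxl2 was not called without shControl replicate 2 (log2 2.88, adjusted p = 0.0611), without shDouble clone 1 (log2 2.05, adjusted p = 0.0896) or with counts summed per line (adjusted p = 0.0976). Col4a4, a basement membrane collagen chain, rose by 4.23 ± 0.36 (adjusted p = 7.9e-05). Chromosome 4 genes were raised as a whole, by medians of 0.11 to 0.32 over the 4 libraries.

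The largest falls by the same rule came close to the limit of detection in shDouble, where 3 counts in a library stand for 0.133 to 0.178 CPM. Dpysl3, a cytoskeletal regulator, measured 0.707, 0.184, 0.104 and 0.119 CPM in shDouble, against 67.7, 155 and 59.8 CPM in shControl (log2 -8.28 ± 0.55, adjusted p = 2.4e-05). Slc39a4, a zinc importer, measured 0.177, 0.459, 0.833 and 0.238 CPM in shDouble, against 38.8, 184 and 140 CPM in shControl (log2 -8.14 ± 0.61, adjusted p = 4.0e-05). Cacna1g, a T-type calcium channel, had 9 counts in all of shDouble, against 1970 in shControl. These genes were thus well expressed in each control line and close to absent in both clones. For genes with 1 to 3 counts in shDouble the ratio of pooled rates, shControl over shDouble, is given with its 95% counting interval. Pdgfrb, the platelet-derived growth factor receptor beta, had 2 counts in shDouble, against 794 in shControl, a ratio of 597 (165 to 4937). Scarf2, a scavenger receptor, had 2 against 925 counts, a ratio of 695 (192 to 5750), and Atp12a, a proton pump, 2 against 547, a ratio of 411 (113 to 3404). Adgrg2, an adhesion G protein-coupled receptor, had 2 against 637 counts (ratio 479, 132 to 3962). Tspan11 had 2 against 496 (ratio 373, 103 to 3087), and Chst1, a sulfotransferase, 3 against 712 (ratio 357, 122 to 1734).

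For some falls the controls themselves were far apart. Akr1c18, a steroid-metabolizing reductase, had 2 counts in shDouble against 893 in shControl (ratio 671, 185 to 5551), with 37.6, 9.34 and 6.05 CPM in shControl replicates 1 to 3. Col3a1, a fibrillar collagen, had 3 against 914 counts (ratio 458, 156 to 2225), with 34, 18 and 1.21 CPM in the controls. Col5a2 had 1 count in shDouble against 421 in shControl (ratio 633, 113 to 25056), but 24.9, 0.778 and 0.385 CPM in the controls, so its pooled ratio rests on shControl replicate 1. Without that library the fitted log2 difference was -4.93 for Col5a2 (adjusted p = 0.00565) and -7.77 for Col3a1 (adjusted p = 0.00239). Of the 24 genes with the largest changes by that rule, 18 were called when the line entered as a random replicate block. Col5a2, Col3a1, Akr1c18, Cacna1g, Tspan11 and Myb were not (adjusted p = 0.24, 0.297, 0.081, 0.0758, 0.0692 and 0.101).

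**Figure D1:**
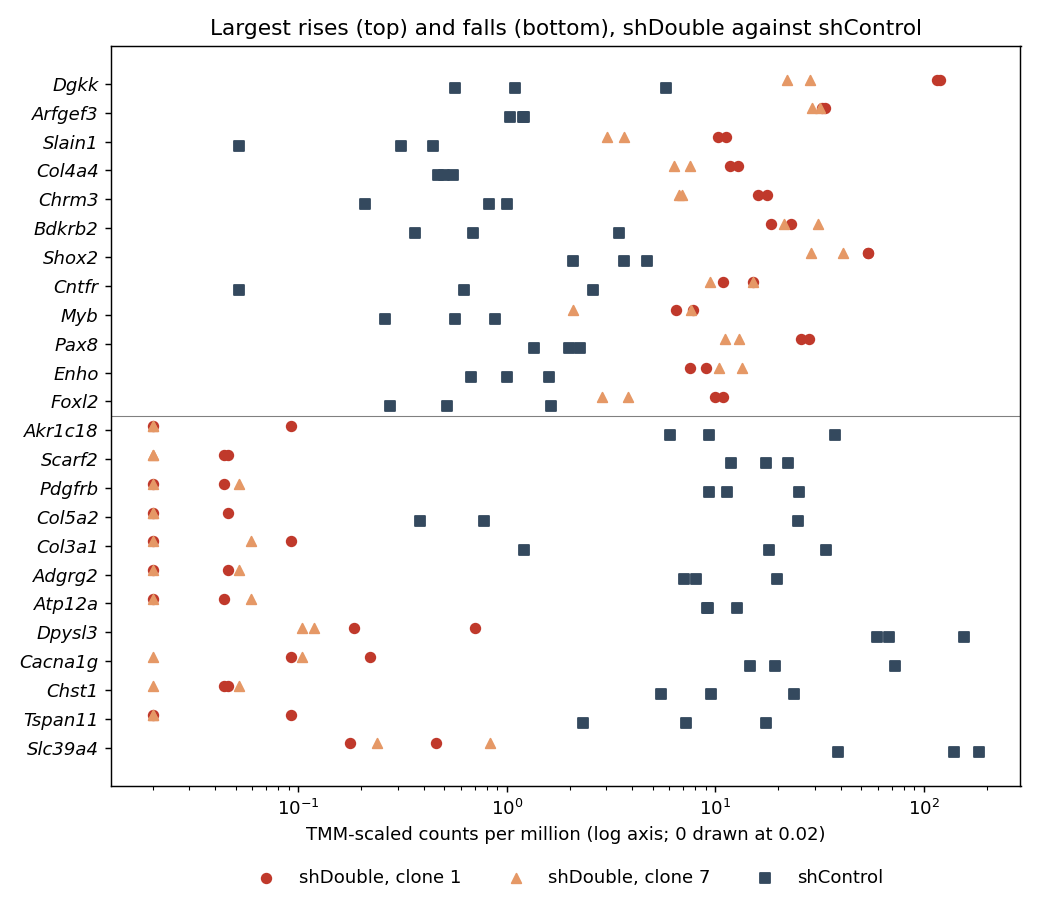
Levels of the 12 genes with the largest rises (top) and the 12 with the largest falls (bottom), in CPM on a log axis, with values of 0 drawn at 0.02. Each point is a library: shDouble clone 1 (circles), shDouble clone 7 (triangles) and shControl (squares). Only genes without overlap between shDouble and shControl were drawn. Dgkk, Slain1, Chrm3 and Foxl2 show the clones apart.

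Of 24 TAK1 complex and pathway genes tested, Map3k7 included, 5 rose (20.8%, against 10.2% of all genes) and 3 fell (12.5%, against 13.6%), with a median log2 of 0.06, against a median of -0.00152 over all genes. The replicate block for the line gave 1 rise and 2 falls, counts summed per line 0 and 1, and the fit without shDouble clone 7 gave 1 and 3. Ikbkg, the regulatory subunit of the IKK complex, measured 30.2 to 38.3 CPM in shDouble, against 43.7 to 52.5 CPM in shControl (log2 -0.58 ± 0.12, adjusted p = 0.00597). Chuk, a catalytic IKK subunit on chromosome 19, rose by 0.46 ± 0.09 (adjusted p = 0.00624), close to the median rise of that chromosome. Mapk8, which encodes JNK1, rose by 0.43 ± 0.10, and Mapk11, a p38 kinase, fell by 0.60 ± 0.16. The TAK1 partners Tab1 and Tab2 differed by -0.01 and -0.04 on the log2 scale without a call. Of 10 CHD remodellers, 2 rose and 1 fell (20% and 10%, against 10.2% and 13.6% of all genes), and the block gave 0 and 1. Chd3, the NuRD complex helicase, had 326 to 412 CPM in shDouble, against 502 to 749 CPM in shControl (log2 -0.72 ± 0.15, adjusted p = 0.00706).

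NF-kB subunits and inhibitors had 5 of 11 tested called lower (45.5%, against 13.6% of all genes). The list had 0 called higher and a median log2 of -0.54. Falls numbered 2 with the block, 1 with counts summed per line and 2 without shDouble clone 7. Bcl3, a nuclear NF-kB cofactor, measured 5.22, 6.01, 6.77 and 4.58 CPM in shDouble, against 39, 59.8 and 38.7 CPM in shControl (log2 -3.02 ± 0.24, adjusted p = 4.7e-05). All shDouble libraries were far below all controls. Relb, a subunit of the alternative pathway, Nfkbiz, Nfkbia, the inhibitor that NF-kB itself induces, and Nfkb1 fell by 0.81, 0.84, 0.59 and 0.54. Bcl3 and Relb lie on chromosome 7, whose median was lowered in clone 7. Rela and Rel, which carry transactivation domains, differed by 0.11 and 0.20 (adjusted p = 0.474 and 0.179).

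Most tested cytokines, chemokines and acute-phase genes known as NF-kB targets fell. Of 39 on the list 30 passed the filter on low counts, of which 19 fell and 1 rose (63.3% and 3.33%), with a median log2 of -1.88. Il6, an inflammatory cytokine, measured 0.221, 0.138, 0.208 and 0 CPM in shDouble, against 15.2, 23.7 and 11.5 CPM in shControl (log2 -6.76 ± 0.47, adjusted p = 2.8e-05). Cxcl2, a neutrophil chemokine, measured 0.0442, 0.138, 0.364 and 0.0594 CPM in shDouble, against 8.86, 19.7 and 28 CPM in shControl (log2 -6.91 ± 0.54, adjusted p = 4.7e-05). Both were close to absent in every shDouble library. Saa3, an acute-phase protein, had 0, 0.138, 0.0521 and 0 CPM in shDouble, against 16.1, 9.7 and 20 CPM in shControl, and C3, the central complement component, 40.4, 62.3, 85 and 57.7 CPM, against 456, 1214 and 597 CPM. Cd14, a co-receptor for lipopolysaccharide, measured 8.74 to 14.4 CPM in shDouble, against 74 to 126 CPM in shControl (log2 -3.00 ± 0.20, adjusted p = 2.4e-05). Lcn2, an iron-binding acute-phase protein, had 0.884, 1.79, 10.7 and 1.96 CPM in shDouble, against 508, 1177 and 583 CPM in shControl. Ptgs2, which encodes cyclooxygenase-2, was the list member that rose: 1248, 1003, 1379 and 1120 CPM in shDouble, against 593, 322 and 885 CPM in shControl (log2 0.98 ± 0.28, adjusted p = 0.0273). Il1a, with a log2 difference of 0.53 (adjusted p = 0.833), and Csf1, with -0.46 (adjusted p = 0.138), were not called. Il1b, Tnf and Csf2 were among 9 members under the filter. The replicate block for the line gave 15 falls and 0 rises, counts summed per line 13 and 0, and leaving out shControl replicate 1 19 and 0.

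The promoters of 4 cytokine genes among the falls are shown because they hold a form of the NF-kB site, GGG followed by any 2 bases and TTTCC. They run from 250 bases before to 50 after the gene's start and are taken from RefSeq on GRCm38.p6, 5′ to 3′ on the plus strand, with motif matches on either strand in capitals. The windows are chr5:30012864-30013163 for Il6, chr5:90890995-90891294 for Cxcl1, chr5:90903649-90903948 for Cxcl2 and chr5:90785851-90786150 for Cxcl3.
Il6: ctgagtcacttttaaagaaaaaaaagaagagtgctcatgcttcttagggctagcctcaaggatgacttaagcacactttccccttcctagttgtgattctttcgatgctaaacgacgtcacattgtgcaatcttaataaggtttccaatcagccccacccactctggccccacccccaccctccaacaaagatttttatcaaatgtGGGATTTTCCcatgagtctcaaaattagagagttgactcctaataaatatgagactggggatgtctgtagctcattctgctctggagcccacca
Cxcl1: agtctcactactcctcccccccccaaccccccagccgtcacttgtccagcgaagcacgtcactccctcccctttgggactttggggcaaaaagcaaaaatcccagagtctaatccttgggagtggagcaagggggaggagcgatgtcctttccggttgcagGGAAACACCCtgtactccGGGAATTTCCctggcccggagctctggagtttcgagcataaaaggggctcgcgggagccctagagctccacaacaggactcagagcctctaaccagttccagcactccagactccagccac
Cxcl2: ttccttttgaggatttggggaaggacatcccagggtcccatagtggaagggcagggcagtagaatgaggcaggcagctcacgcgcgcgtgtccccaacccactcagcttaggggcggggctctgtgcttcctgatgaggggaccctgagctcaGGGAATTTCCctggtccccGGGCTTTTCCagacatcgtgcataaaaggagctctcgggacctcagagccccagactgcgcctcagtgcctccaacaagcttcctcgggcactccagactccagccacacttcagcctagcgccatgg
Cxcl3: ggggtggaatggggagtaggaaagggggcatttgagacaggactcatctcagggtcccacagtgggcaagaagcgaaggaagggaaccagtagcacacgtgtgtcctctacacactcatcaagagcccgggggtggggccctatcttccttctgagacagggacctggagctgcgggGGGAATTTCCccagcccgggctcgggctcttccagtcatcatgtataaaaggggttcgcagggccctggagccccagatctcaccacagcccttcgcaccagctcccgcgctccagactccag
Il6 and Cxcl3 hold 1 match each, Cxcl2 holds 2, and Cxcl1 holds 2, of which the first reads on the minus strand. Of all 32851 promoter windows of this length, 535 hold the motif (1.63%). Among genes of the NF-kB target and subunit lists with a promoter in the table, it stood in 5 of 15 called lower, the fifth being Nfkbia, in 0 of 1 called higher, in 3 of 11 not called (Rel, Nfkb2 and Csf1) and in 1 of 7 under the filter. These are counts of genes with a match in any of their windows, while the 1.63% is a share of windows, so the measures differ. The lists hold genes chosen as NF-kB targets or subunits, so a share above that of all windows could be foreseen without these data. Cxcl1 measured 109, 85.9, 179 and 94.5 CPM in shDouble, against 310, 205 and 278 CPM in shControl (log2 -1.17 ± 0.24, adjusted p = 0.00643). Cxcl3 measured 22.2, 17.4, 10.2 and 5.05 CPM in shDouble, against 48.2, 55.5 and 68.5 CPM in shControl (log2 -2.06 ± 0.51, adjusted p = 0.0159).

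Interferon-stimulated genes were lower as well. Of 31 tested 16 fell (51.6%, against 13.6% of all genes) and 0 rose, with a median log2 of -0.97. Isg20, an antiviral exonuclease, measured 5.26, 6.15, 4.63 and 4.69 CPM in shDouble, against 14.7, 16 and 18.8 CPM in shControl (log2 -1.67 ± 0.16, adjusted p = 1.4e-04). Zbp1, a sensor of nucleic acids, had 0.133, 0.0459, 0.208 and 0 CPM in shDouble, against 1.06, 8.72 and 1.87 CPM in shControl. Gbp2, an interferon-induced GTPase, had 1.01 to 4.69 CPM in shDouble, against 10.7, 30 and 19.2 CPM in shControl. The clone 4 control stood highest for Zbp1, Gbp2, Herc6 and Xaf1, and without it 11 members fell. Falls numbered 5 under the replicate block, 3 with counts summed per line and 8 without shDouble clone 7. Irf7, an interferon-induced transcription factor, differed by -1.73 without a call (adjusted p = 0.0655). In the antigen presentation list 5 of 14 fell (35.7%, against 13.6% of all genes) and 0 rose. The falls were the peptide-loading genes Tapbp and Tap2, the immunoproteasome genes Psmb8 and Psmb10, and Erap1. The list had 2 falls with the block, 0 with counts summed per line, 3 without the clone 4 control and 2 without shDouble clone 7. The class I chains H2-K1 and H2-D1 differed by 0.73 and 0.03 (adjusted p = 0.122 and 0.863). All 5 falls had their highest control value in clone 4, at 163 CPM for Tapbp against 94.5 and 128 CPM in the other controls.

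**Figure D2:**
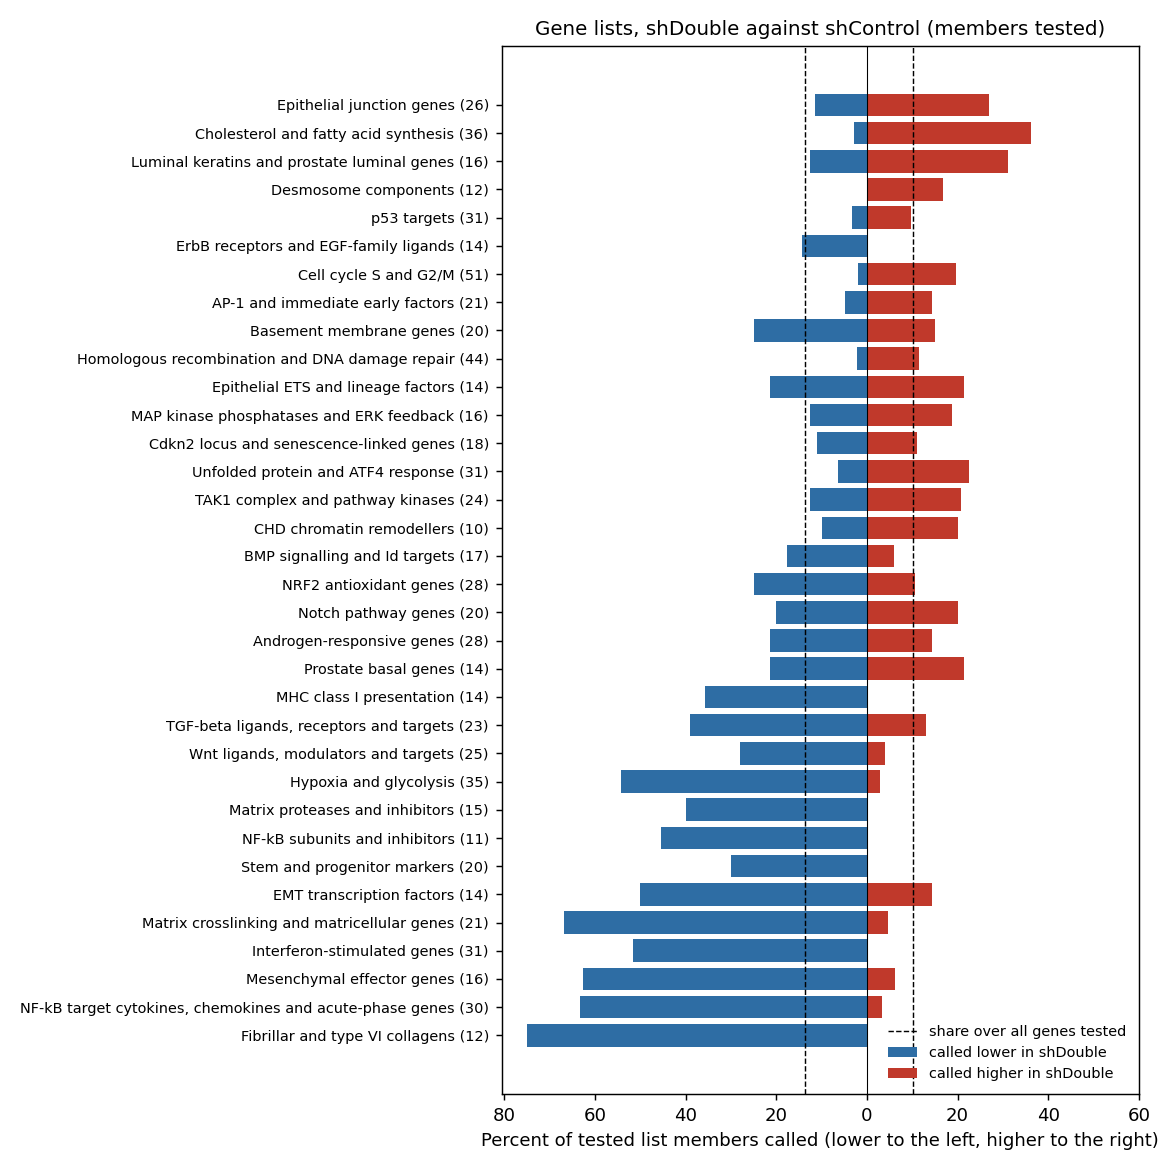
Percent of the tested members of each gene list with at least 10 genes tested that were called lower (left) or higher (right) in shDouble than in shControl, with the number tested in brackets and dashed lines at the shares over all genes tested, 13.6% lower and 10.2% higher. Collagens, NF-kB targets, mesenchymal and matricellular genes reach furthest to the left of the lists drawn, and cholesterol, luminal and junction genes furthest to the right.

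Fibrillar and type VI collagens had the lowest median of the lists with at least 10 genes tested, at -4.38 on the log2 scale, with 9 of 12 tested called lower (75%) and 0 higher. Col5a1, a chain that starts collagen fibrils, measured 0.265, 0.321, 2.08 and 0.535 CPM in shDouble, against 144, 150 and 81.4 CPM in shControl (log2 -7.31 ± 0.55, adjusted p = 3.8e-05). Col6a1, a chain of beaded microfibrils, measured 2.26, 3.58, 1.98 and 0.357 CPM in shDouble, against 139, 207 and 49.8 CPM in shControl (log2 -5.97 ± 0.57, adjusted p = 1.4e-04). The groups lay far apart for both, and Col6a2 measured 0.364 to 1.37 CPM in shDouble, against 90.7, 107 and 9.13 CPM in shControl. Col8a1 and Col12a1 differed by -1.12 and -0.74 without a call. The number of falls was 4 under the replicate block, 4 with counts summed per line, 7 without shControl replicate 1 and 5 without shDouble clone 7. Among genes that crosslink or organize the matrix 14 of 21 fell and 1 rose (66.7% and 4.76%, against 13.6% and 10.2% of all genes). Their median was -0.86. The falls were 8 with the block, 3 with counts summed per line and 7 without shDouble clone 7. Lox, the enzyme that crosslinks collagen and elastin, measured 11, 13.6, 1.98 and 0.891 CPM in shDouble, against 168, 381 and 248 CPM in shControl (log2 -5.24 ± 0.74, adjusted p = 0.00116). Bgn, a proteoglycan, had 0 to 0.459 CPM in shDouble, against 53.1, 15.9 and 4.78 CPM in shControl, and Vcan, another, 132 to 166 CPM, against 415, 698 and 267 CPM. Fn1, which encodes fibronectin, was the member that rose, at 18271, 18720, 20103 and 19884 CPM in shDouble, against 10150, 17648 and 11739 CPM in shControl (log2 0.55 ± 0.16, adjusted p = 0.0329). It was not called under the replicate block or with counts summed per line, where 0 members were higher.

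Basement membrane genes moved both ways, with 3 rises and 5 falls of 20 (15% and 25%, against 10.2% and 13.6% of all genes). The count of falls was 1 with the block and with counts summed per line, 2 without shDouble clone 7 and 3 without shControl replicate 1 or 2, and that of rises 2 to 5 in these fits. Col4a3 and Col4a4, which pair in a collagen IV network and lie next to each other on chromosome 1, rose together: Col4a3 measured 5.17, 3.72, 2.66 and 2.79 CPM in shDouble, against 0.125, 0.104 and 0.055 CPM in shControl (log2 5.16 ± 0.54, adjusted p = 2.5e-04). Lama4, a mesenchymal and vascular laminin chain, fell by 4.08 ± 0.53 on the log2 scale. Nid1, which links laminin to collagen IV, had 0 to 0.275 CPM in shDouble but 236, 479 and 0.165 CPM in shControl, so control clone 5 lay inside the shDouble range. Col4a1 and Col4a2, the widespread collagen IV chains, differed by 1.08 and 1.16 (adjusted p = 0.0594 and 0.0725). Of 15 proteases and their inhibitors 6 fell (40%, against 13.6% of all genes) and 0 rose. Falls numbered 3 under the block and 2 with counts summed per line. Timp1, an inhibitor of metalloproteinases, measured 84.7 to 135 CPM in shDouble, against 284 to 342 CPM in shControl (log2 -1.42 ± 0.21, adjusted p = 0.00133), and Mmp3 had 0.178 to 1.7 CPM, against 7.94 to 17.2 CPM.

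Of 14 transcription factors and regulators of epithelial to mesenchymal transition (EMT) tested 7 fell and 2 rose (50% and 14.3%, against 13.6% and 10.2% of all genes). Zeb1, a repressor of epithelial genes, measured 0.177, 0.184, 1.3 and 0.178 CPM in shDouble, against 20.8, 50.1 and 24.2 CPM in shControl (log2 -6.11 ± 0.59, adjusted p = 1.6e-04). Zeb2 measured 3.23, 2.85, 5.41 and 3.39 CPM in shDouble, against 12.6, 43.4 and 17.8 CPM in shControl, and Twist2 and Snai1 fell by 3.92 and 0.88. Esrp1, an epithelial splicing regulator on chromosome 4, measured 305, 328, 284 and 307 CPM in shDouble, against 145, 114 and 208 CPM in shControl (log2 0.98 ± 0.18, adjusted p = 0.00469), and Grhl2, which maintains epithelial junctions, rose by 0.77 ± 0.16. Snai2 was not called (log2 -1.57, adjusted p = 0.156). The replicate block gave the same counts of 7 and 2, and with counts summed per line 2 and 0. Of 16 mesenchymal effector genes 10 fell and 1 rose (62.5% and 6.25%, against the same shares over all genes). Falls numbered 6 under the block, 3 with counts summed per line and 5 without shDouble clone 7. Vim, the intermediate filament vimentin, measured 405, 335, 298 and 246 CPM in shDouble, against 866, 936 and 451 CPM in shControl, and S100a4 fell by 1.62 ± 0.25. Tpm1, a tropomyosin, was the riser (log2 0.66 ± 0.15, adjusted p = 0.00964). Cdh2, or N-cadherin, was not called (log2 0.40, adjusted p = 0.837).

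Epithelial junction genes rose more often than they fell, with 7 rises and 3 falls of 26 (26.9% and 11.5%, against 10.2% and 13.6% of all genes). Their median was 0.38. Cdh1, or E-cadherin, measured 738, 772, 728 and 798 CPM in shDouble, against 425, 248 and 459 CPM in shControl (log2 1.01 ± 0.18, adjusted p = 0.00388). Tjp1, a tight-junction scaffold, went the other way, at 222 to 236 CPM in shDouble, against 294 to 359 CPM in shControl (log2 -0.52 ± 0.08, adjusted p = 0.00194). Of 12 desmosome genes Dsg2 and Evpl rose (log2 0.74 and 0.75) and 0 fell. The rises were 16.7% of the list, against 10.2% of all genes. Under the replicate block 6 junction genes rose and 2 fell, and with counts summed per line 1 and 0.

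Prostate luminal genes gave 5 rises and 2 falls of 16 (31.2% and 12.5%), and basal genes 3 and 3 of 14 (21.4% each way). The shares over all genes were 10.2% and 13.6%. The luminal rises were 3 with the block, 0 with counts summed per line, 0 without shDouble clone 1, 1 without clone 7 and 3 without the clone 4 control. Basal genes gave 2 rises and 1 fall with the block. The luminal keratin Krt18 measured 2885, 2749, 3102 and 2826 CPM in shDouble, against 1830, 631 and 1685 CPM in shControl (log2 1.06 ± 0.29, adjusted p = 0.0231). Tmprss2, an androgen-regulated protease, measured 23.6 to 32.2 CPM in shDouble, against 11.2, 0.675 and 6.87 CPM in shControl, and the pioneer factor gene Foxa1 rose by 0.87 ± 0.24. The clone 4 control was the lowest library for both Krt18 and Tmprss2. Psca had 1 count in shDouble, with 0.999, 1.3 and 0 CPM in shControl, a ratio of 61.6 (10.5 to 2493). It was called in the main fit (log2 -5.32, adjusted p = 0.0188). Psca was not called with the block (adjusted p = 0.278), with counts summed per line (adjusted p = 0.151), or without shDouble clone 1 or clone 7 (adjusted p = 0.0914 and 0.116). Trp63, the basal master regulator, measured 0.84, 2.34, 0.521 and 1.37 CPM in shDouble, against 11.4, 12.1 and 5.17 CPM in shControl (log2 -2.90 ± 0.49, adjusted p = 0.00279). Cd44, an adhesion receptor for hyaluronan, measured 1420, 1321, 1354 and 1556 CPM in shDouble, against 689, 507 and 750 CPM in shControl (log2 1.12 ± 0.15, adjusted p = 8.0e-04), and Itga2 rose by 1.29 ± 0.23. Krt14, a basal keratin, was not called (log2 -0.12, adjusted p = 0.813). Of 20 stem and progenitor markers 6 fell (30%, against 13.6% of all genes) and 0 rose. Falls numbered 4 under the block, 0 with counts summed per line and 3 without shDouble clone 7. Ly6a, which encodes Sca-1, measured 205, 182, 153 and 138 CPM in shDouble, against 257, 399 and 477 CPM in shControl (log2 -1.15 ± 0.25, adjusted p = 0.00966), and Nes and Lrig1 fell by 1.84 and 1.03. Cd34, which endothelial cells also express, had 50.7 CPM in shControl replicate 1 and 1.82 and 1.21 CPM in the others, and its log2 difference was -4.07 with that library and -0.52 without it (adjusted p = 0.31). Androgen-responsive genes gave 4 rises and 6 falls of 28 (14.3% and 21.4%, against 10.2% and 13.6% of all genes). The counts were 2 and 4 with the block and 1 and 2 with counts summed per line. Steap4, a metalloreductase, measured 0 to 0.364 CPM in shDouble, against 13.4 to 25.8 CPM in shControl. Abcc4 measured 60.9 to 85.6 CPM in shDouble, against 24.7 to 36.5 CPM in shControl.

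Epithelial ETS and lineage factors gave 3 rises and 3 falls of 14 (21.4% each way, against 10.2% and 13.6% of all genes). Under the block these were 2 and 3, and with counts summed per line 0 and 2. Ehf, an epithelial ETS factor, measured 11.4, 22.6, 12.4 and 13.4 CPM in shDouble, against 129, 278 and 127 CPM in shControl (log2 -3.57 ± 0.36, adjusted p = 1.9e-04). All 4 shDouble libraries lay far below the controls, while Etv5, another ETS factor, rose by 0.99 ± 0.20.

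**Figure D3:**
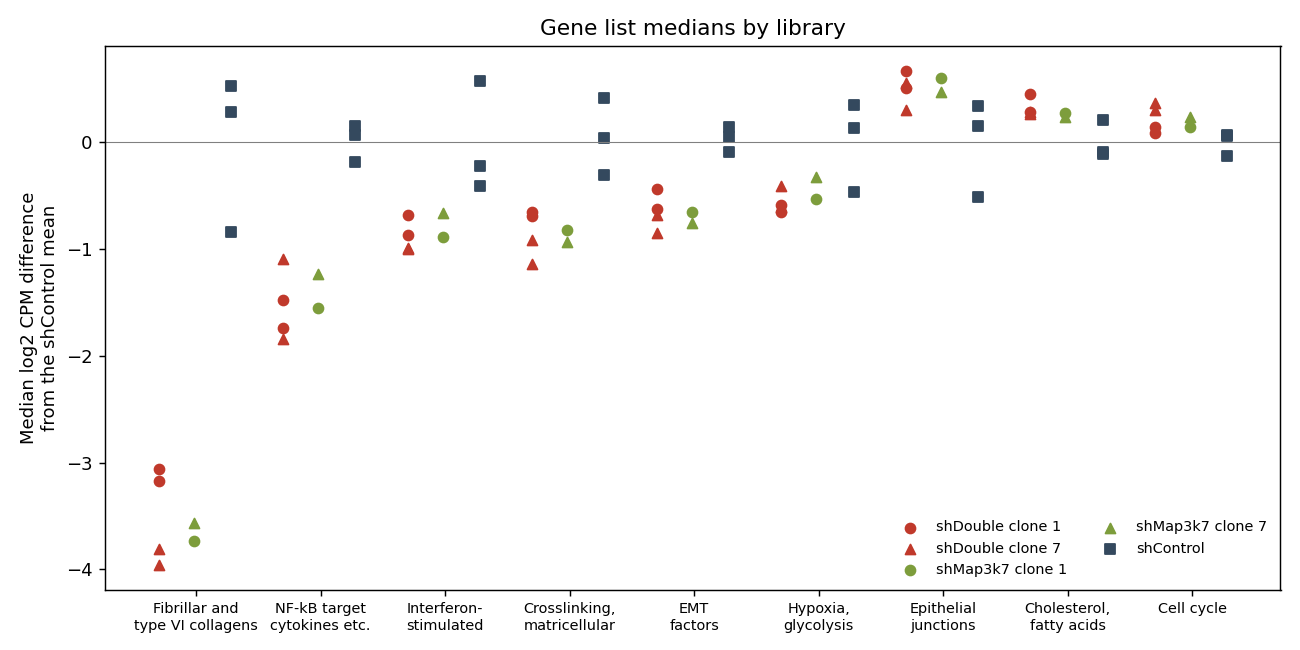
Median log2 CPM difference from the shControl mean over the tested members of 9 gene lists, 1 point per library, for shDouble, shMap3k7 and shControl from left to right within each list. Collagens lie between -3.96 and -3.06 in shDouble and between -0.84 and 0.53 in shControl, and hypoxia and glycolysis genes reach -0.47 in shControl replicate 1, inside the shDouble range.

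In the TGF-beta pathway 9 genes fell, receptors and ligands among them, and 3 rose of 23 (39.1% and 13%, against 13.6% and 10.2% of all genes). The block gave 5 falls and 2 rises, and counts summed per line 3 and 2. Tgfbr3, a co-receptor, measured 0.929, 0.597, 0.729 and 0.713 CPM in shDouble, against 29, 27.9 and 16.5 CPM in shControl (log2 -5.03 ± 0.31, adjusted p = 1.3e-05). Tgfbr2, the ligand-binding receptor kinase, measured 139, 152, 139 and 138 CPM in shDouble, against 274, 297 and 287 CPM in shControl (log2 -1.01 ± 0.09, adjusted p = 1.3e-04). Neither overlapped between the groups. Tgfb1 had 12.4 to 20.3 CPM in shDouble, against 35.8 to 61.5 CPM in shControl, and Tgfb2 0.26 to 0.442 CPM, against 0.825 to 2.39 CPM. Thbs1, a matricellular protein that can activate latent TGF-beta, measured 3178, 3539, 2884 and 3341 CPM in shDouble, against 1128, 655 and 1555 CPM in shControl (log2 1.54 ± 0.23, adjusted p = 0.00157). Among BMP genes 3 fell and 1 rose of 17 (17.6% and 5.88%, against 13.6% and 10.2% of all genes). With the block or with counts summed per line, 0 fell and 0 rose. Fstl1 measured 0.677 to 1.37 CPM in shDouble, against 51.2, 2.39 and 44.9 CPM in shControl, with the clone 4 control apart from the others.

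Notch genes gave 4 rises and 4 falls of 20 (20% each way, against 10.2% and 13.6% of all genes). Jag1, a Notch ligand, measured 436, 389, 347 and 397 CPM in shDouble, against 119, 112 and 95.7 CPM in shControl (log2 1.85 ± 0.15, adjusted p = 6.1e-05), with no overlap. The Notch-induced genes Nrarp and Hey2 rose by 1.58 ± 0.23 and 4.11 ± 0.70, Hey2 at 0.884 to 1.67 CPM in shDouble, against 0, 0.0519 and 0.165 CPM in shControl. The coactivator gene Maml1 and the receptor gene Notch2 fell by 0.60 and 0.65, and Jag2 was not called (log2 0.25, adjusted p = 0.253). Under the replicate block 4 Notch genes rose and 2 fell. Among Wnt genes 7 fell and 1 rose of 25 (28% and 4%, against 13.6% and 10.2% of all genes). Falls numbered 2 with the block, 2 with counts summed per line, 2 without shDouble clone 7 and 3 without the clone 4 control, and the block and the summed counts gave 0 rises. Rspo3, which strengthens Wnt signalling, measured 0.133, 0.275, 0.156 and 0 CPM in shDouble, against 7.43, 16.5 and 14.1 CPM in shControl (log2 -6.36 ± 0.49, adjusted p = 8.2e-05), and Axin2, a Wnt-induced feedback inhibitor, 0 to 0.275 CPM, against 1.59 to 3.84 CPM. Znrf3, a ligase that removes Wnt receptors, rose by 0.41 ± 0.10. AP-1 and immediate early genes gave 3 rises and 1 fall of 21 (14.3% and 4.76%, against 10.2% and 13.6% of all genes). The block gave 1 and 1. Fosl2 fell by 0.93 ± 0.12 and Fosb, Ier2 and Dusp5 rose by 1.62, 0.33 and 0.65. Fos and Fosl1 differed by -0.56 and 0.18 without a call. Of 16 MAP kinase phosphatases and ERK feedback genes 3 rose and 2 fell (18.8% and 12.5%), and 1 and 2 did so with the block. Spry4 measured 7.39 to 10.5 CPM in shDouble, against 2.36 to 3.81 CPM in shControl. Of 14 ErbB receptors and ligands Nrg1 and Errfi1 fell (14.3%, close to the 13.6% of all genes) and 0 rose.

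Hypoxia and glycolysis genes were mostly lower, with 19 falls and 1 rise of 35 (54.3% and 2.86%, against 13.6% and 10.2% of all genes). Their median was -0.50. Pfkfb3, which stimulates glycolysis, measured 7.96, 8.63, 8.43 and 8.14 CPM in shDouble, against 12.9, 37.5 and 22.8 CPM in shControl (log2 -1.56 ± 0.29, adjusted p = 0.00413). Egln3, an oxygen-sensing hydroxylase, had 2.87, 3.4, 0.364 and 0.119 CPM in shDouble, against 15.2, 68.8 and 21.2 CPM in shControl. The clone 4 control was highest for both genes and shControl replicate 1 lowest. Falls numbered 7 without the clone 4 control, 22 without shControl replicate 1, 6 without shDouble clone 7, 7 under the replicate block and 0 with counts summed per line. Mxi1, on chromosome 19, was the riser (log2 0.76 ± 0.16). Slc2a1 and Hk2, which take up and phosphorylate glucose, were not called (log2 -0.10 and -0.20, adjusted p = 0.799 and 0.445).

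Of 36 cholesterol and fatty acid synthesis genes 13 rose (36.1%), 1 fell and the rest were not called, with a median of 0.36. Hmgcs1, an early enzyme of cholesterol synthesis, measured 476, 488, 527 and 469 CPM in shDouble, against 285, 330 and 379 CPM in shControl (log2 0.57 ± 0.10, adjusted p = 0.00303). Fdft1, which commits the pathway to sterols, and the fatty acid synthesis genes Acaca and Fasn rose by 0.62, 0.56 and 0.38, and none of the 4 genes overlapped between the groups. The regulators Srebf1 and Srebf2 differed by -0.26 and 0.27 (adjusted p = 0.0709 and 0.0656). Under the replicate block 7 sterol and lipid genes rose, with counts summed per line 1, and without 1 control library 7 to 20. In the unfolded protein and ATF4 list 7 rose and 2 fell of 31 (22.6% and 6.45%, against 10.2% and 13.6% of all genes), and 4 and 0 did so with the block. Atf4 measured 385, 401, 493 and 446 CPM in shDouble, against 225, 241 and 301 CPM in shControl (log2 0.75 ± 0.13, adjusted p = 0.00269). Its amino acid targets Slc7a5, Psat1 and Mthfd2 rose by 1.06, 1.19 and 1.20. The chaperone genes Hspa5 and Hsp90b1 were not called (log2 0.17 and 0.15). Slc7a11, a cystine transporter, fell by 1.16 ± 0.26. Among NRF2 antioxidant genes 7 fell and 3 rose of 28 (25% and 10.7%, against 13.6% and 10.2% of all genes). The block gave 5 and 0. Fth1, the ferritin heavy chain, measured 710, 664, 765 and 708 CPM in shDouble, against 1421, 3428 and 1655 CPM in shControl. Nfe2l2 was not called (log2 -0.15).

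Cell cycle genes gave 10 rises and 1 fall of 51 (19.6% and 1.96%, against 10.2% and 13.6% of all genes) and a median of 0.20. Their median departure from the control mean was 0.09 and 0.14 in clone 1 and 0.30 and 0.37 in clone 7, against -0.13, 0.06 and 0.07 in shControl. Fen1, a replication nuclease, measured 136, 141, 130 and 139 CPM in shDouble, against 72.5, 78.1 and 78.9 CPM in shControl (log2 0.83 ± 0.08, adjusted p = 1.3e-04). Fen1, Kif11 and Kif20b, the 3 rises with the smallest p, all lie on chromosome 19, and the last 2 rose by 0.64 and 0.69. Aurkb, a mitotic kinase, measured 39.4, 39.4, 40.1 and 45.9 CPM in shDouble, against 71.3, 85.5 and 90.9 CPM in shControl (adjusted p = 1.7e-04). Mcm2 and Mcm4, subunits of the replicative helicase, were not called (log2 0.20 and 0.08). Rises numbered 18 with clone 7 alone, 5 with clone 1 alone, 4 under the replicate block and 1 with counts summed per line. DNA repair genes, of interest because CHD1 loss is linked to faulty homologous recombination, gave 5 rises and 1 fall of 44 (11.4% and 2.27%, against 10.2% and 13.6% of all genes), and 2 and 0 with the block. Brca1 and Brca2 differed by 0.15 and -0.07 (adjusted p = 0.468 and 0.783), and Parp1, a sensor of strand breaks, rose by 0.42 ± 0.09. Of 31 p53 targets 3 rose and 1 fell (9.68% and 3.23%, no higher than the 10.2% and 13.6% of all genes): Plk2, Pmaip1 and Plk3 rose by 0.85, 1.47 and 0.91, Fas, a death receptor, fell by 2.81, and Trp53 and Cdkn1a differed by 0.26 and 0.18 without a call. Of 18 Cdkn2 and senescence-linked genes 2 rose and 2 fell (11.1% each way, close to the shares over all genes). The block gave 1 and 0. Lmnb1 was among the rises (log2 0.57 ± 0.11).

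Markers of other cell types were measured as a check on the cultures. Of 12 fibroblast markers 5 passed the filter and all 5 fell: Pdgfrb, Twist2, Col3a1, Pdgfra and Col1a1. Their summed level over the 12 was 7.56, 9.32, 6.3 and 5.59 CPM in shDouble, against 100, 49.7 and 26.4 CPM in shControl, while Dcn, Lum, Thy1, Fap and Col1a2 were under the filter. Without shControl replicate 1 the count was 4. Pdgfrb and Col3a1 had 2 and 3 counts in shDouble and passed the filter only through libraries where they were higher. The filter thus favoured falls among the markers tested, and 5 of 5 is not read as support. All 5 are also members of the collagen, EMT or mesenchymal lists above, so they are not a separate measure beside those lists, and whether the controls hold cells of another type was not tested. In bulk RNA, fewer cells of a type and less RNA per cell cannot be told apart. Of 8 smooth muscle markers 3 were tested and Mylk fell, with Myh11 and Cnn1 at most 0.275 CPM in all 7 libraries. The summed level of the 8 was 240, 242, 291 and 284 CPM in shDouble, against 204, 153 and 240 CPM in shControl. Of 10 immune markers 3 were tested. Cd14 fell and Csf1r rose, at 0.78 to 2.81 CPM in shDouble, against 0.187 to 0.495 CPM in shControl, with Ptprc at most 0.178 CPM in all 7 libraries. Of 10 neuroendocrine markers 4 were tested: Ncam1, Foxa2 and Eno2 fell (0 falls without shDouble clone 7), and Nkx2-2 had 0.964 to 1.81 CPM in shDouble and 0 counts in shControl, at least 25.1-fold higher with 3 counts over the control group taken as the limit.

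Some chromosomes were shifted as a whole in shDouble. On chromosome 19, 195 of 468 genes tested were called higher (41.7%), and the median departure from the control mean was 0.48, 0.47, 0.30 and 0.27 in shDouble, against -0.03 and 0.04 at the extremes in shControl. On chromosome 4, 20.9% were called higher, with medians of 0.30 and 0.32 in clone 1 and 0.11 in both libraries of clone 7. On chromosome 8, 17.5% were called higher, with medians of 0.22 and 0.21 in clone 7, and on chromosome 7, 19.7% were called lower, with medians of -0.39 and -0.37 in clone 7. Clone 7 had medians of -0.20 and -0.19 on chromosome 5 and of -0.24 and -0.19 on chromosome 16. The clone 4 control lay at -0.13 and -0.15 there. On chromosome 5, 1.86% were called higher and 14% lower, and on chromosome 16, 4.33% and 16.1%. The shMap3k7 libraries of the same clones had 0.45 and 0.29 on chromosome 19 and -0.10 and -0.37 on chromosome 7. Among the called genes above, Chuk, Dusp5, Fen1, Kif11, Kif20b, Mxi1 and Psat1, which rose, and Fas and Fth1, which fell, lie on chromosome 19. Cntfr, Enho, Esrp1 and Plk3, which rose, and Map3k7 and Errfi1, which fell, lie on chromosome 4. Cdh1, Ier2 and Slc7a5, which rose, and Nrg1 and Psmb10, which fell, lie on chromosome 8. Bcl3, Relb, Saa3, Isg20, Tgfb1 and Tjp1, which fell, and Fosb, which rose, lie on chromosome 7. Il6, Cxcl1, Cxcl2, Cxcl3, Tgfbr3 and Fosl2, which fell, are among those on chromosome 5, and Scarf2, Nfkbiz and Fstl1, which fell, among those on chromosome 16. With chromosome 19 genes left out, 3165 genes were called.

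**Figure D4:**
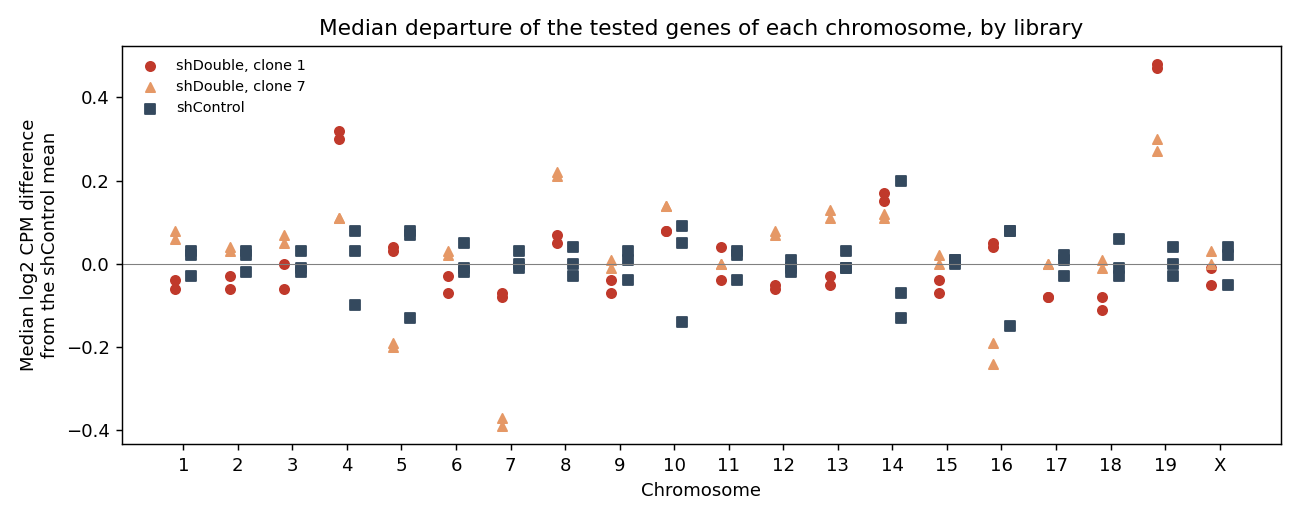
Median log2 CPM difference from the shControl mean over the tested genes of each chromosome, 1 point per library, for shDouble clone 1 (circles), shDouble clone 7 (triangles) and shControl (squares). Chromosome 19 stands at 0.27 to 0.48 in the 4 shDouble libraries and chromosome 7 at -0.39 and -0.37 in clone 7 alone.

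The next comparison asked what a Chd1 hairpin adds in the Map3k7 clones. No difference between shDouble and shMap3k7 was detected in any gene: edgeR's quasi-likelihood test called 0 of 14346 (0%), with 115 genes at an unadjusted p under 0.05 (0.802%). DESeq2 called 0, and 0 were called with the clone as a fixed replicate block. Chd1 was among the falls with the smallest p, at 198, 162, 194 and 190 CPM in shDouble, against 221 and 238 CPM in shMap3k7 (log2 -0.30 ± 0.10, adjusted p = 1), so all 4 libraries lay below both. Map3k7 gave no call (41 ± 1.27 CPM in shDouble, SD, n = 4; 41.5 ± 2.07 CPM in shMap3k7, SD, n = 2; log2 -0.02 ± 0.09). Rsc1a1 measured 5.53, 6.61, 6.72 and 5.82 CPM in shDouble, against 2.99 and 3.91 CPM in shMap3k7 (log2 0.84 ± 0.22, unadjusted p = 0.0028, adjusted p = 1). Dpm1, an enzyme of glycosylation, and Numb, a Notch inhibitor, differed by 0.44 and 0.28, and Sla2 had 0.0918 to 0.575 CPM in shDouble, against 0 CPM in both shMap3k7 libraries. Fam227a, Xpnpep2 and Vegfd, a lymphangiogenic growth factor, differed by -1.36, -1.36 and -1.29, all at under 3 CPM.

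The genes that set shDouble apart from shControl stood at much the same level in both groups of Map3k7 clones. Of 2810 genes called against shControl with a mean of at least 5 CPM, 39 had a fitted difference of at least 2-fold between shDouble and shMap3k7. Arfgef3 averaged 31.7 ± 1.92 CPM in shDouble (SD, n = 4) and 31.7 ± 0.713 CPM in shMap3k7 (SD, n = 2). Dgkk differed more between clones than between these groups, at 120 and 115 CPM in clone 1 of shDouble and 140 CPM in clone 1 of shMap3k7. In clone 7 it had 22.1 and 28.4 CPM in shDouble and 38.5 CPM in shMap3k7. Its fitted log2 difference was -0.32 ± 0.82 (adjusted p = 1). With 2 shMap3k7 libraries, small differences may not be detectable in this comparison. The main fit also leaves the clone out, so its spread includes differences between clones and between control lines. The lack of calls therefore does not show that a Chd1 hairpin had no effect.

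Between the clones of the shDouble libraries (clone 1 over clone 7) edgeR's quasi-likelihood test called 0 genes (0%), while 2760 had an unadjusted p under 0.05 (19.2%). DESeq2 called 585, the fit with no low-count filter 369, and fits without shMap3k7 replicate 1 or 2 called 180 or 184. The count of calls thus moved with the tool, the filter and the libraries in the fit. Srgap3, a regulator of small GTPases, measured 3.49 and 3.08 CPM in clone 1 and 1.04 and 0.773 CPM in clone 7 (log2 1.84 ± 0.26, unadjusted p = 4.0e-05, adjusted p = 0.153), against 12.6 to 18.3 CPM in shControl. Abcc3, an organic anion exporter, measured 7.34 and 7.21 CPM in clone 1 and 1.67 and 1.84 CPM in clone 7, against 10.6 to 16.4 CPM in shControl. Wtip, on chromosome 7, had 23.2 and 21.4 CPM in clone 1 and 6.4 and 7.19 CPM in clone 7, and Rab36 1.77 and 1.06 CPM in clone 1 and 0.104 and 0.119 CPM in clone 7. Kpna2, a nuclear import receptor, was higher in clone 7, at 68.6 and 63.8 CPM in clone 1 and 124 and 114 CPM in clone 7 (log2 -0.85 ± 0.13, unadjusted p = 8.5e-05), against 72.5 to 75.2 CPM in shControl. Fam126b, Tmem209 and Fam107b differed by -0.61, -0.53 and -0.71, and each had an adjusted p = 0.153. Of the 2810 genes above, 158 differed at least 2-fold between clones. The clone difference correlated across genes with r = 0.571 between shMap3k7 and shDouble, as a description over genes that are not independent.

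Between the Chd1 hairpins (96528 over 96526) edgeR's quasi-likelihood test called 0 genes (0%), with 212 at an unadjusted p under 0.05 (1.48%), and DESeq2 called 2. Sod3, an extracellular superoxide dismutase, measured 51.4 and 48.1 CPM with 96528 and 21.4 and 17.2 CPM with 96526, in clones 1 and 7 in that order (log2 1.37 ± 0.21, unadjusted p = 1.3e-04, adjusted p = 1). The genes named here had the smallest p in a fit with a clone term, a choice that favours gaps alike in both clones. For Sod3, shMap3k7 had 15.3 and 17.5 CPM, close to 96526, against 295, 426 and 449 CPM in shControl. Syk, a tyrosine kinase, measured 49.1 and 57.6 CPM with 96528 and 38.2 and 37.3 CPM with 96526, against 20.8 to 24.2 CPM in shControl. Pet117, a mitochondrial assembly factor, had 0 CPM in both 96528 libraries and 1.68 and 3.33 CPM with 96526, against 0.187, 1.66 and 1.04 CPM in shControl. Bmper, a modulator of BMPs, had 0.689 and 0.178 CPM with 96528 and 1.68 and 1.2 CPM with 96526, and Cfl2, a muscle cofilin, 29.1 and 34.9 CPM with 96528 and 38.6 and 54.6 CPM with 96526. Chrd, a BMP antagonist, had 3.99 and 2.38 CPM with 96528 and 1.77 and 0.937 CPM with 96526, and Rcor1, a corepressor, differed by 0.38. Tnfsf13os, an antisense transcript, differed at under 0.3 CPM, and its counts cannot be told from those of overlapping genes without the strand setting. For Chd1 itself the difference was -0.16 ± 0.10 (adjusted p = 1), with 162 and 190 CPM with 96528 and 198 and 194 CPM with 96526.

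**Figure D5:**
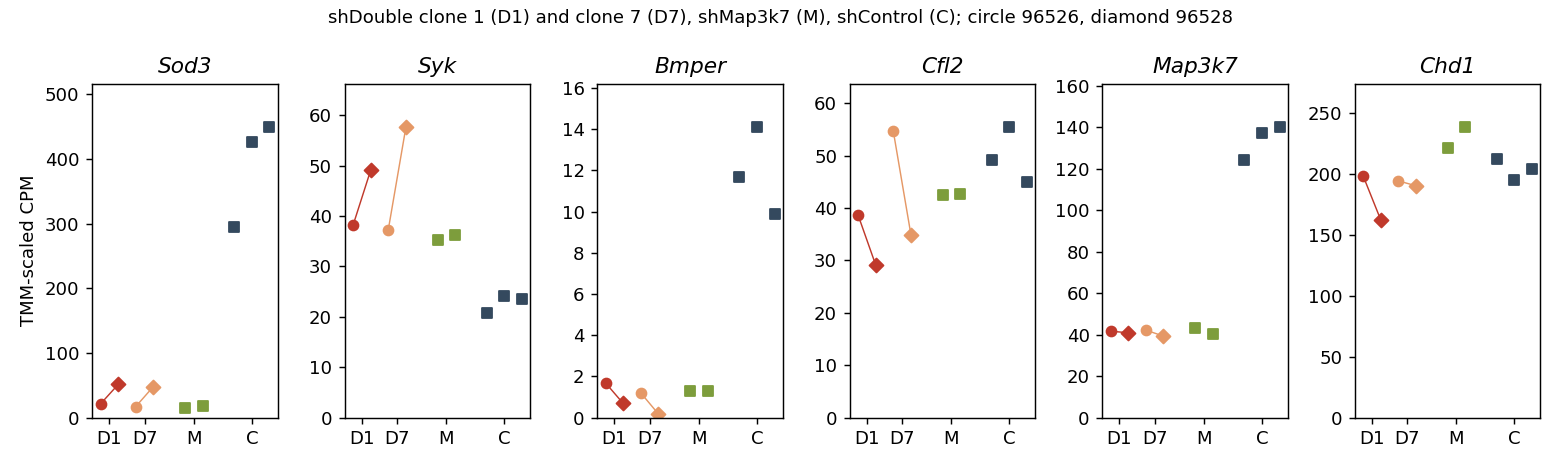
CPM of 4 genes with small p between the Chd1 hairpins and of both targeted genes, by library, with lines joining the hairpins 96526 (circle) and 96528 (diamond) within clone 1 (D1) and clone 7 (D7) of shDouble, beside shMap3k7 (M) and shControl (C). Sod3 and Syk are higher and Bmper and Cfl2 lower with 96528 in both clones, which the choice by small p favours. Map3k7 is alike in all Map3k7 clones.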

How the data were processed

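Messenger RNA of 11 libraries of WFU3 cells was sequenced. The authors deposited expected counts per gene, made with Bowtie2 and RSEM 1.3.1 on GRCm38, per the submitters' processing notes. For the annotation and the strand setting, the sources used here give nothing, so overlapping and antisense genes are uncertain, and the split of reads between near-identical paralogs rests on RSEM. The authors also deposited log2 values per gene, which equal log2 of the count plus 0.5 with a constant per library and were not tested.

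Expected counts of 48299 genes were rounded to whole numbers. Genes were kept by edgeR's filterByExpr (minimum count 10, minimum total 15), scaled with TMM factors and tested by edgeR 4.0.16 (quasi-likelihood test, 1 mean per group over all 11 libraries, R 4.3.3), with Benjamini-Hochberg adjustment over 14346 genes and calls at an adjusted p under 0.05. The comparison of clones split shDouble by clone, and that of hairpins added the clone as a term. CPM are scaled by TMM factors, fold changes are log2 and errors are SE unless named. Counting intervals (95%) and the limit of 3 counts use counts pooled over the libraries of a group. They cover counting error only and leave out the spread between libraries and lines. Reads carried no molecular identifiers, so duplicate reads could not be set apart. On simulated data for shDouble against shControl (13993 genes, 200 changed 3-fold) the test recovered 80% of changed genes, and 5.88% of its calls were false. The simulated libraries were independent, without the likeness of libraries of the same line. The share of false calls among the real calls therefore cannot be read from this simulation.

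The members and the 39 gene lists were chosen with earlier results of these data known. Genes were named by a rule: Map3k7 and Chd1; the 12 largest called rises and falls with a mean of at least 5 CPM and no overlap of libraries, passing over predicted genes; the 4 smallest p each way in the other comparisons; and per list the 5 called members with the smallest adjusted p and the first 2 uncalled. Lcn2, Ptgs2, Cxcl1, Cxcl3, Fn1, Grhl2, Vim, Tpm1, Krt8, Tgfb2 and the endothelial and other cell markers that did not pass the filter were named after their values were seen. A few genes that the rule names are not reported here. Positions come from GENCODE M21 (GRCm38), where 14175 of 14346 symbols matched.

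Alternatives were RLE size factors, DESeq2 1.42.0, other filters, leaving out chromosome 19, each library or each clone, only the groups compared, a 2-fold minimum, counts summed per line, and limma 3.58.1 (voom) with the line as a random replicate block. The pairing of libraries by line comes from the clone numbers in the labels. The clone difference correlated at 0.571 between shMap3k7 and shDouble, and the consensus correlation within a line was 0.631.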

Additional observations from a re-analysis of the deposited data

Results flagged for a closer look

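For 12 of 204 genes looked at over the 4 shDouble libraries, 1 library lay apart from the others. The gap from that library to its nearest neighbour, as a share of the range of the 4 values, exceeded Dixon's 95% critical value. For independent, normally spread values chance flags about 1 in 20 such groups. That rate does not carry over here, since the 4 libraries share clones and hairpins. Where only 1 library had counts, the ratio is 1 by construction. In shDouble replicate 2 this held for Akr1c18 (1), Col5a2 (1) and Tspan11 (1), which had 0 CPM in the libraries other than replicate 2, and for Tgfbr2 (0.974), at 152 CPM against 138 to 139 CPM in the others. In replicate 3 it held for Myb (0.86) and Zeb1 (0.985), and for Psmb8 (1) and Bmp2 (1), which had 0 CPM in the libraries other than replicate 3. Zeb1 measured 1.3 CPM there and 0.177 to 0.184 CPM in the others. In replicate 4 it held for Chst1 (0.871), Aurkb (0.89) and Fanca (0.868), with Aurkb at 45.9 CPM there and 39.4 to 40.1 CPM in the others. In replicate 1 it held for Psca (1), with 1 count there and 0 elsewhere.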

How the results depend on the processing

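Called genes between shDouble and shControl numbered 554 with counts summed per line (182 higher, 372 lower), 1557 with the line as a random replicate block (717 higher, 840 lower), 1802 without shDouble clone 7 (736 higher, 1066 lower) and 1307 with a 2-fold minimum. Leaving out each library in turn gave 2177 to 3273 (895 to 1402 higher, 1282 to 1915 lower). The other alternatives stayed within 1.5 times 3413. Of 3737 values of 179 named genes under the alternatives, 3361 kept their direction and side of the threshold, 376 lost the call and 0 reversed. The clone comparison gave 585 with DESeq2 (399 higher, 186 lower), 369 with no low-count filter (298 higher, 71 lower) and 0 to 184 without 1 library (0 to 145 higher, 0 to 39 lower). DESeq2 gave 2 calls between hairpins (1 higher, 1 lower). Between shDouble and shMap3k7, 0 genes were called in every alternative run, the clone as a fixed replicate block included, and Map3k7's log2 difference of -0.02 ranged from -0.06 to 0.04 when a library was left out, at 0.00 without shDouble replicate 4 and 0.04 without shMap3k7 replicate 1. The causes were not tested. The clone comparison has no fit with counts summed per line, which leaves 1 sample per clone. Genes under the filter on low counts were not tested. Some of them were well counted in a single library. Dcn measured 8.24 CPM in shControl replicate 1, against 0.104 and 0 CPM in shControl replicates 2 and 3.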
